A study of Homo sapiens with 2 samples.

Results

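Antisense RNA genes are transcribed from the strand opposite a neighbouring gene and carry the name of that sense gene followed by -AS. The peaks described here are the 1189 of 44771 peaks of an APC chromatin immunoprecipitation that are listed under such a name. They name 519 antisense genes, of 17266 genes named in all, and were chosen by the gene name alone. All but 4 of the 519 genes are typed as non-coding RNA in the list; C1QTNF9B-AS1, DPP9-AS1 and GDNF-AS1 are typed as protein-coding and CLRN1-AS1 as a pseudogene. The 1189 peaks come from 1 anti-APC library of HCT-116, an established human colon carcinoma line, made with a polyclonal antibody raised to the C terminus of the protein. The other library of the series is pre-cleared input without antibody. The cells of both libraries are labelled APC wild-type and CTNNB1 deltaSer45, a β-catenin that resists degradation, so no library without that allele enters here. APC is a component of the complex that marks β-catenin for degradation.

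Many antisense genes start close to their sense gene, and their starts can face away from each other, with the sense start on one strand and the antisense start on the other. Such head-to-head starts often share a GC-rich promoter. Other antisense genes start within the body of the sense gene, and their transcripts run back towards the sense start. A peak over a shared promoter is listed under 1 gene name only, that of the transcription start site (TSS) nearest its centre, so a peak under an antisense name is not by itself a peak of the antisense gene.

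The list holds 1 library without replicates and no read counts, so the depth is unknown and no difference was tested. Intervals given with shares are 95% Wilson intervals and cover counting error only. Neighbouring peaks and peaks of 1 gene share their source and are not replicates. In all 44771 rows the score column holds the peak's length (end less start, and 2 bp more), so length is the only size measure, and it is no measure of binding strength. Coordinates of peaks and start sites are on hg19.

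The sequences below show what lies between paired starts under a peak. They are the promoter windows of 3 antisense genes whose start lies head to head with that of the sense gene, less than 250 bases away, with 1 peak over both starts, and whose start-to-start gap in the list is matched within 2 bp by the RefSeq table of GRCh38.p14. Each window runs from 250 bases before to 50 after the antisense start, on the antisense strand, and the capitals mark the bases from the sense start to the antisense start. CCNT2-AS1 lies next to CCNT2, which encodes a cyclin of the elongation kinase P-TEFb (GRCh38.p14, chr2:134918557-134918856, minus strand). KTN1-AS1 lies next to KTN1, the gene of the kinesin receptor kinectin (GRCh38.p14, chr14:55580043-55580342, minus strand). BOLA3-AS1 lies next to BOLA3, which encodes a mitochondrial iron-sulphur cluster factor (GRCh38.p14, chr2:74147731-74148030, plus strand).
CCNT2-AS1: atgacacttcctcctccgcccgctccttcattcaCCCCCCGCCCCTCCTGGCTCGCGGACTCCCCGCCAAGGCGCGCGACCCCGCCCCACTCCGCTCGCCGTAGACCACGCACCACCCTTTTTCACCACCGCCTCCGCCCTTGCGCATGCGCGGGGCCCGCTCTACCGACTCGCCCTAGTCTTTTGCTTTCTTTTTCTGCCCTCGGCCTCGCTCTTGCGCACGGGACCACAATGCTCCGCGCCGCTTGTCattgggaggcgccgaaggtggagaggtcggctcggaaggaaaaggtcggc
KTN1-AS1: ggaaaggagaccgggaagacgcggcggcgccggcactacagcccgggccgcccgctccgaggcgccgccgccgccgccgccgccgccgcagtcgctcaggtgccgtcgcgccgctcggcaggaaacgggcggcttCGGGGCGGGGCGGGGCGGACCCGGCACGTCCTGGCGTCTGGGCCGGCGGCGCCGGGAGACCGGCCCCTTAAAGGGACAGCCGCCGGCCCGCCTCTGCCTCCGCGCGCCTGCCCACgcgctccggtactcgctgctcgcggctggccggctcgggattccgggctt
BOLA3-AS1: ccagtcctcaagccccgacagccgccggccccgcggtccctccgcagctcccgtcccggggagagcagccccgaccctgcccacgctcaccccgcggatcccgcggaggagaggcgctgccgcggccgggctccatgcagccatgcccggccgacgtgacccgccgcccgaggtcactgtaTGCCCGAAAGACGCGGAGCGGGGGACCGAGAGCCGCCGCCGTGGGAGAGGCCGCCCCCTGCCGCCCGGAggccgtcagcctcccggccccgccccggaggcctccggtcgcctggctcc

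These 3 windows are rich in G and C. The CCNT2-AS1 window has a GC content of 67.3% and 34 CG dinucleotides, that of KTN1-AS1 80.0% and 54, and that of BOLA3-AS1 79.0% and 41. The paired starts are 216 bp apart at CCNT2, 115 bp at KTN1 and 69 bp at BOLA3. The peak over both starts is 2998 bp long at CCNT2 (hg19 chromosome 2, 135674445 to 135677441), 2747 bp at KTN1 (chromosome 14, 56045731 to 56048476) and 2079 bp at BOLA3 (chromosome 2, 74374165 to 74376242). The CCNT2 and BOLA3 peaks are listed under the antisense name and the KTN1 peak under the sense name, so 1 kind of site appears in the list under either name.

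Antisense-named peaks lay mostly within genes and mostly away from the antisense start. By their centres, 652 (54.8%, interval 52.0 to 57.6) were intronic, against 45.6% of all peaks. Between genes lay 327 (27.5%, interval 25.0 to 30.1), against 36.1% of all peaks and 64.2% of the 1226 peaks named for LINC genes, the long intergenic non-coding RNAs. Promoter labels fell on 119 peaks (10.0%, interval 8.43 to 11.8), where the background over all peaks was 11.2%. That share was 12.6% among 35769 peaks of protein-coding genes and 4.32% among LINC-named peaks. Exons of non-coding transcripts held 37 peaks (3.11%, interval 2.27 to 4.26), against 0.786% of all peaks. The share was 2.77% (interval 1.99 to 3.85) among LINC-named peaks, near the antisense share, and 0.400% among peaks of protein-coding genes. Repeats of the SINE class labelled 416 centres (35.0%, interval 32.3 to 37.7), against 38.7% of all peaks.

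The antisense start itself was under 175 of the 1189 peaks (14.7%, interval 12.8 to 16.8), beside 18.8% of all peaks that cover the start of their named gene. Centres within 1 kb of the start made up 14.0% (167 peaks, interval 12.2 to 16.1), against 18.1% of all peaks, and centres beyond 100 kb 22.2% (264 peaks), against 13.2%. The median distance was 29909 bp for antisense-named peaks, 16492 bp for peaks of protein-coding genes and 49012.5 bp for LINC-named peaks. By the median, antisense-named peaks stood between those kinds. Centres downstream of the named start made up 48.9% (interval 46.1 to 51.8), whereas the share was 59.8% for protein-coding and 58.3% for LINC-named peaks. Around the 1-kb bound, the MLLT4-AS1 peak was centred 998 bp downstream and the DLEU7-AS1 peak 961 bp upstream of the start. Just outside it, the HOXC-AS2 peak was centred 1007 bp downstream and the GAS5-AS1 peak 1026 bp upstream, and these last peaks were long enough to cover the start.

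**Figure D1:**
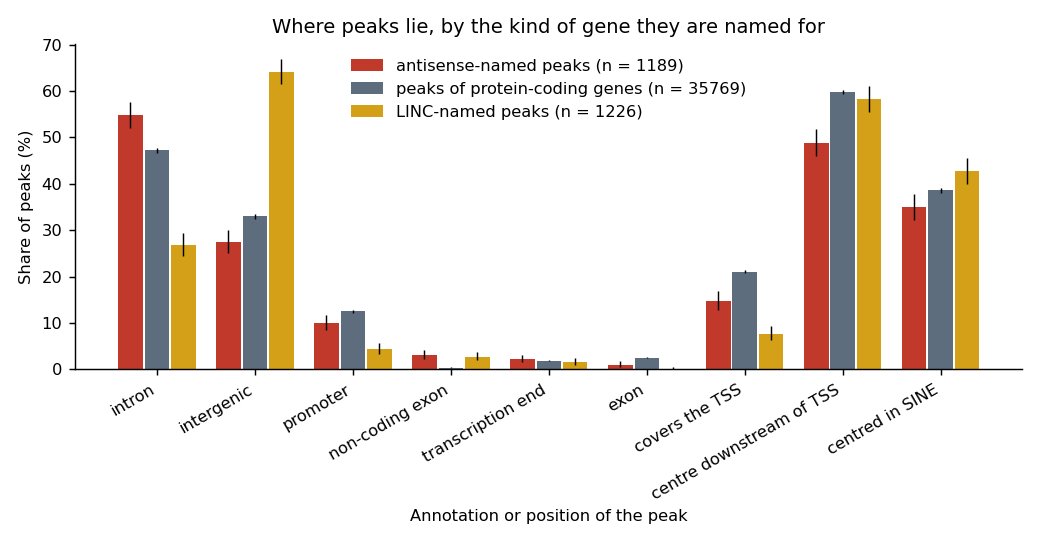
Share of peaks in percent (bars, with 95% Wilson intervals as lines) by annotation or position of the peak, for antisense-named peaks, peaks of protein-coding genes and LINC-named peaks. Antisense-named peaks were intronic in 54.8% and promoter-labelled in 10.0% of cases, and their centres lay downstream of the start in 48.9%.

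**Figure D2:**
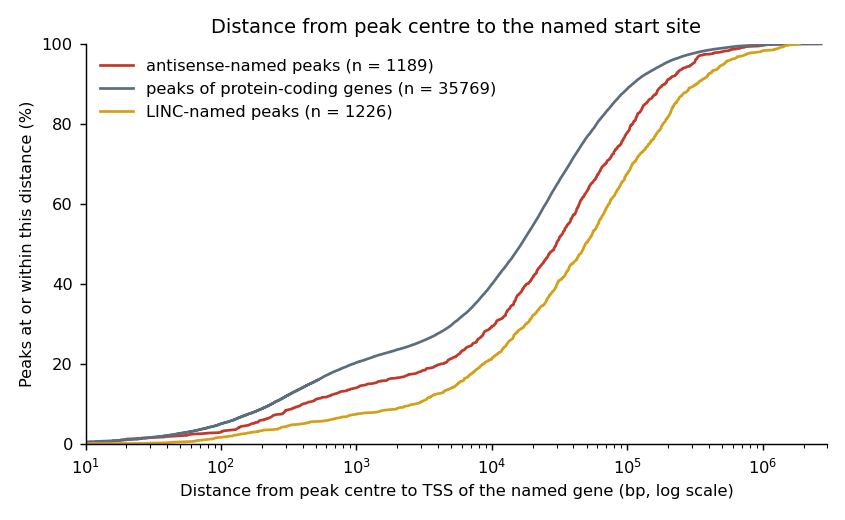
Cumulative share of peaks in percent against the distance in bp (log scale) from peak centre to the named start, for the same kinds of peaks. The antisense curve runs between the others, with medians of 16492, 29909 and 49012.5 bp for protein-coding, antisense and LINC names.

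More peaks under an antisense name were centred in a transcript of the sense gene than in one of the antisense gene. The transcript that the list gives at the peak centre belonged to the sense gene for 472 peaks (39.7%, interval 37.0 to 42.5) and to the antisense gene itself for 251 (21.1%, interval 18.9 to 23.5). It belonged to another gene for 126 (10.6%), and 13 peaks named a transcript not matched in the RefSeq table. Where the transcripts of both genes overlap, the list names 1 of them, so this is the label at the centre and not the full set of genes there. Of the 652 intronic peaks, 408 (62.6%, interval 58.8 to 66.2) lay in introns of the sense gene and 137 (21.0%) in introns of the antisense gene. Those 408 peaks carried 213 antisense names, and 99 of them (24.3%) lay in the sense gene's first intron. Promoter labels told otherwise: 66 of 119 (55.5%, interval 46.5 to 64.1) cited the antisense transcript and 40 (33.6%, interval 25.8 to 42.5) the sense transcript. Exons of non-coding transcripts cited the antisense gene in 34 of 37 cases.

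At some antisense genes every peak lay in the sense gene. For SH3PXD2A-AS1, the sense gene SH3PXD2A encodes TKS5, a scaffold of invadopodia, the protrusions with which cells degrade matrix. All 11 peaks under the antisense name lay in introns of SH3PXD2A on chromosome 10 (105392745 to 105554816), none covered the antisense start, and the shortest was 1791 bp, the longest 4271 bp and the median 2943 bp. All 11 PCCA-AS1 peaks lay in introns of PCCA, a subunit gene of propionyl-CoA carboxylase (828 to 1792 bp), and all 10 MAGI1-AS1 peaks in introns of MAGI1, a junctional scaffold gene (573 to 2600 bp). For EGFR-AS1, 5 of its peaks lay in introns of EGFR, the epidermal growth factor receptor, and their lengths were 1225, 2226, 2779, 2211 and 1184 bp. The sixth EGFR-AS1 peak, 997 bp long, was in the intron of the antisense gene, 2795 bp from its start. None of the EGFR-AS1 peaks covered the antisense start.

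Antisense-named peaks had a median length of 1192 bp (quartiles 782 and 2044 bp), against 1350 bp for all peaks (quartiles 858 and 2135 bp) and 1065.5 bp for LINC-named peaks. Peaks of 5 kb or more numbered 29 (2.44%, interval 1.70 to 3.48), near the 3.08% of all peaks. Peaks over the antisense start were longer, with a median of 2430 bp against 1055 bp for the rest. The same split gave 2249 and 1184 bp over all peaks, and a long peak covers a start more easily than a short one. The 119 promoter-labelled peaks had a median of 2342 bp, beside 2104 bp for all promoter peaks. By the transcript at the centre, medians were 1574 bp in the antisense gene, 1184 bp in the sense gene, 1221.5 bp in another gene and 1006 bp between genes. Split by cover of the antisense start, the order of the antisense and sense genes turned. Medians were 2248.5 and 2905 bp for covering peaks, and 976 and 1103 bp for the rest. The start was covered by 108 of 251 peaks in the antisense gene and 51 of 472 in the sense gene. Among peaks of 2135 bp or more, 38.0% of antisense-named peaks covered the named start (interval 32.4 to 43.8), against 41.0% of all peaks and 21.7% of LINC-named peaks (interval 16.7 to 27.8). Among peaks from 1350 bp up to that length the shares were 24.3%, 25.0% and 12.8%. Among those from 858 bp up to 1350 bp they were 4.04% (interval 2.37 to 6.78), 8.19% (interval 7.69 to 8.71) and 5.13% (interval 3.18 to 8.17), so there the antisense share was below that of all peaks. Shorter peaks covered the named start in under 1% of cases in each of these kinds.

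**Figure D3:**
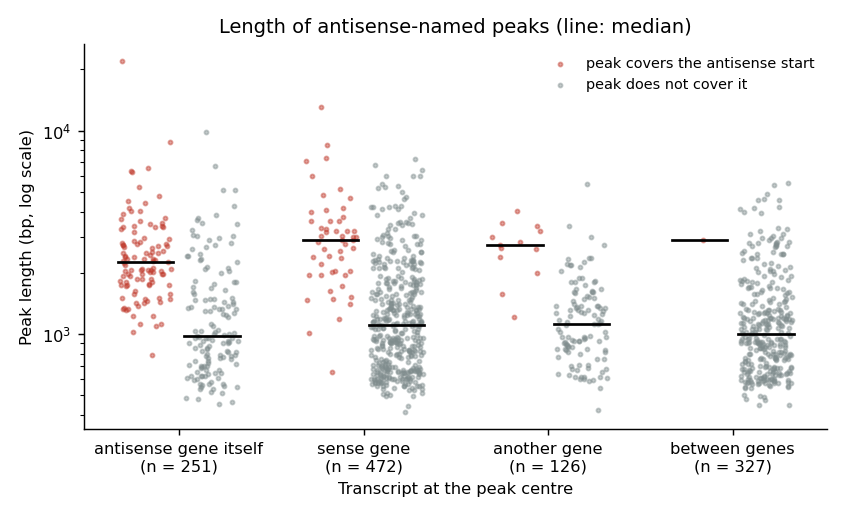
Length in bp (log scale) of antisense-named peaks by the transcript at the peak centre, split by whether the peak covers the antisense start, with lines at the medians. Peaks over the start had medians of 2248.5 bp in the antisense gene and 2905 bp in the sense gene, against 976 and 1103 bp for peaks that do not cover it.

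The sense gene was itself named for a peak for 361 of the 519 antisense genes (69.6%, interval 65.5 to 73.4), and for 363 when older symbols were matched. Counted over the 490 sense genes found as protein-coding in the RefSeq table, 346 were named (70.6%, interval 66.4 to 74.5), where the background over 20056 protein-coding genes was 67.4%. A peak listed under the sense name lay over the sense start for 168 (34.3%, interval 30.2 to 38.6), against a background of 36.5%. These shares lie near those of all protein-coding genes. A peak under the sense name lay within 10 kb of an antisense-named peak in 90 of 1189 cases (7.57%, interval 6.20 to 9.21). Within 50 kb there was such a peak in 351 cases (29.5%). The 1189 include the peaks of 156 antisense genes without a sense-named peak, which cannot count here. A peak over a shared promoter cannot be listed under both names, and the part of this naming in these shares was not tested. No background share was computed for them.

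Start positions on hg19 were solved from the list's own signed distances, or with the strand of the RefSeq promoter table, and 242 antisense and sense pairs on opposite strands could be placed. Each pair was measured between the closest starts listed for its genes, and 34 of the 242 sense genes had more than 1 listed start. In 63 pairs the antisense start lay upstream of that sense start, head to head, with a median gap of 262 bp. In the other 179 it lay downstream, in the sense gene or past it, with a median gap of 40333 bp. In 8 of the 63, among them ARHGEF3-AS1, KANSL1-AS1, MACROD2-AS1 and MKLN1-AS, the sense gene had a listed start farther upstream, from which the antisense start is inside the gene. A further pair, BHLHE40-AS1 and BHLHE40, came out on the same strand 81187 bp apart by the listed distances. SRGAP2-AS1 falls among the head-to-head pairs by the rule, but its listed start is 85376435 bp from that of SRGAP2, a gene with near-identical copies on chromosome 1, so it is no neighbour.

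Pairs with neighbouring starts usually had 1 peak across them. Of 79 pairs with starts within 1 kb of each other, 63 (79.7%, interval 69.6 to 87.1) lay under a single peak listed for one of the partners, and in 14 neither start was under a peak named for either gene. A single peak spanned both starts in 37 of the 46 head-to-head pairs among them and in 26 of the 33 with the antisense start just inside the sense gene. The median gaps were 167 and 257 bp, while peaks over a start had a median length of 2249 bp in the whole list. A peak of that length over one start easily takes in the other, and at least 1 start was covered in 65 of the 79 pairs. No background share was computed, and the part of peak length in the 79.7% was not tested. Only pairs with peaks under both names could be placed, so these shares do not describe antisense genes at large. At 135 pairs with starts over 10 kb apart, the sense start was under a peak in 64 (47.4%, interval 39.2 to 55.8) and the antisense start in 35 (25.9%, interval 19.3 to 33.9). Over all protein-coding genes named for a peak, 54.2% had a peak of their own name over a start, and so did 33.3% of the 519 antisense genes. Those shares count any listed start of a gene, under its own name only. The pair shares count only the closest starts, under a peak named for either gene, so the values are not like for like. Among all 242 pairs, 70 had 1 peak over both starts, 25 had a peak over each, 52 had the sense start alone, 21 the antisense start alone and 74 neither. Peaks under the name of any other gene were not counted here.

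Lengths of the 70 peaks over both starts had a median of 2253.5 bp and extremes of 654 and 6312 bp, and 31 were listed under the antisense and 39 under the sense name. Their centres lay between the starts in 23 cases, on the sense-gene side in 27 and on the other side in 20, with no side holding most of them. The longest, 6312 bp, spanned GSN-AS1 and GSN, the gene of the actin-severing protein gelsolin (chromosome 9, 124046423 to 124052733), where the antisense start is 1050 bp upstream of an internal GSN start and 17428 bp inside the gene from the GSN start listed farthest upstream. The next, 5311 bp, spanned SIX3-AS1 and SIX3, a homeobox gene of forebrain and eye (chromosome 2, 45163765 to 45169074), with starts 391 bp apart and the centre 2618 bp upstream of the SIX3 start. The third, 5169 bp, lay over MKX-AS1 and MKX, a homeobox gene of tendon, where the antisense start is 1234 bp inside the sense gene. At SLC2A1, the GLUT1 glucose transporter gene, a 4427-bp peak took in starts 127 bp apart and was listed for SLC2A1. The 5 peaks listed for SLC2A1-AS1 lay elsewhere: those of 2271, 4694, 5484 and 4965 bp in SLC2A1 introns and one of 2356 bp between genes. Single peaks also spanned the paired starts of ZMIZ1 (4416 bp), a SUMO ligase family gene, and THAP7 (4201 bp). Others lay at GTSE1 (4022 bp), EZR (4018 bp), the gene of the membrane-cytoskeleton linker ezrin, KMT2E (3747 bp) and ENO1 (3715 bp), a glycolytic enzyme gene.

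**Figure D4:**
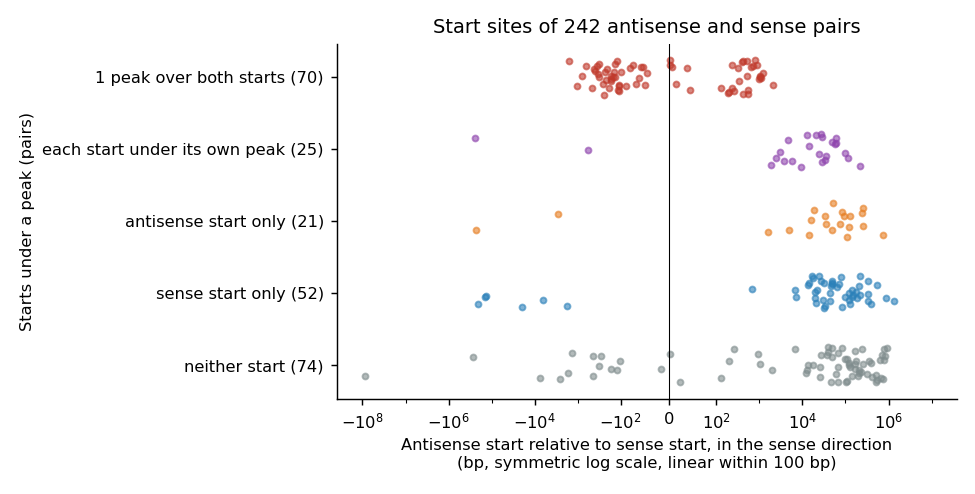
Position of the antisense start relative to the sense start in bp (symmetric log scale, negative values upstream, head to head) for 242 pairs on opposite strands, by which starts lie under a peak listed for either gene. The 70 pairs with 1 peak over both starts lie close to 0, and the 74 with neither start covered lie mostly far to the right. The point far to the left is SRGAP2-AS1.

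For 58 of the 173 antisense genes with a peak over their start, no peak was listed under the sense name (33.5%, interval 26.9 to 40.9), near the 30.1% of all 519 antisense genes (156 genes, interval 26.3 to 34.1). HOXC-AS2, HOXB-AS3 and TRG-AS1 are among the 58, though HOXC, HOXB and TRG name gene clusters. These 58 genes had 59 such peaks, with a median length of 2637 bp. At the centre, 33 of the 59 cited the antisense gene's own transcript and 22 the sense transcript. Several of the longest were labelled as promoters of the sense gene. The MAFG-AS1 peak, 13123 bp (chromosome 17, 79879642 to 79892763), was labelled as a promoter of MAFG, a small MAF partner of NRF2. The RASSF1-AS1 peak, 8456 bp (chromosome 3, 50371009 to 50379463), was labelled as a promoter of RASSF1, a tumour suppressor of the RAS and hippo pathways. The SEMA3B-AS1 peak of 7353 bp (50300397 to 50307748) lay close by on the same chromosome, at a promoter of the semaphorin gene SEMA3B. At FAM83H-AS1 the peak was 7094 bp long and cited FAM83H, a keratin-organising protein gene; at PTGES2-AS1 it was 5953 bp long and cited PTGES2, a prostaglandin synthase gene. Peaks of 4093 bp at PCBP1-AS1, 3583 bp at PDCD4-AS1 and 3593 bp at ST3GAL5-AS1 cited PCBP1, an RNA-binding protein gene, PDCD4, a translation inhibitor gene, and ST3GAL5, a ganglioside synthase gene.

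For the antisense genes of the 3 longest promoter-labelled peaks, the windows at their starts in the RefSeq table are shown. These peaks are labelled as promoters of MAFG, RASSF1 and SEMA3B, for which no peak is listed by name. Here the capitals mark the GC box letters GGGCGG on either strand. The start in the RefSeq table may differ from the one the list used, and unlike in the first set of windows no match was required. A window here, that of MAFG-AS1 included, may therefore lie away from the listed start and need not be a promoter. MAFG-AS1 is at GRCh38.p14 chr17:81922649-81922948 on the plus strand, RASSF1-AS1 at chr3:50337261-50337560 on the plus strand and SEMA3B-AS1 at chr3:50267322-50267621 on the minus strand.
MAFG-AS1: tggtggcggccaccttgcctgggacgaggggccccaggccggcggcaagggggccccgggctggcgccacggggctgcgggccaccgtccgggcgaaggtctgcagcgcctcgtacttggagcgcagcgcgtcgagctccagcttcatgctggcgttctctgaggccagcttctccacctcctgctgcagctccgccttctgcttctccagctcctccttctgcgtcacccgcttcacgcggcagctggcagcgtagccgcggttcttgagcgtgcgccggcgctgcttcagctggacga
RASSF1-AS1: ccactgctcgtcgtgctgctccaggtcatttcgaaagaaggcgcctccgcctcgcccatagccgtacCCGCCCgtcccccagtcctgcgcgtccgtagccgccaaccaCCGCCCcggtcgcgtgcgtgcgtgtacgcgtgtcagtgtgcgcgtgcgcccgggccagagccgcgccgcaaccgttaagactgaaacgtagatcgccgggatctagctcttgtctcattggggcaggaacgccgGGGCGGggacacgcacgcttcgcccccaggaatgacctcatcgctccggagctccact
SEMA3B-AS1: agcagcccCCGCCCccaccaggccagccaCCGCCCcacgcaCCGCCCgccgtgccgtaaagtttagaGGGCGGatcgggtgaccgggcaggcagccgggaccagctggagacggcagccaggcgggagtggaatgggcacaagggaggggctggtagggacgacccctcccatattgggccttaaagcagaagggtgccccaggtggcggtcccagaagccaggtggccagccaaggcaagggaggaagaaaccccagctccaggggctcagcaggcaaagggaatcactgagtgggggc

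The MAFG-AS1 window had a GC content of 71.0%, 31 CG dinucleotides and no GC box. That of RASSF1-AS1 had 67.7%, 40 CG dinucleotides and 3 GC boxes. SEMA3B-AS1 had 68.3%, 15 CG dinucleotides and 4 GC boxes, so similar GC contents went with unlike numbers of CG and GC boxes. These counts describe the windows shown and do not compare the starts under the peaks.

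Across antisense genes, windows at starts under a peak were richer in G and C. By the solved positions, the start was under a peak of the antisense gene's own name for 173 of 519 genes, under a peak of another name only for 57, and under no listed peak for 228, while 61 could not be placed. A window of 300 bases was matched for 134, 52 and 184 genes of the first 3 kinds. The median GC content was 68.3% (quartiles 62.7 and 73.0) under an own-named peak, 64.0% (quartiles 56.5 and 70.4) under a peak of another name, 50.8% (quartiles 42.2 and 61.8) under none and 58.3% over all 27305 windows of the table. The observed over expected CG ratio was 0.821, 0.809, 0.295 and 0.580 in the same order. The GC box GGGCGG, read on both strands as were all letters here, was in 67.9% (interval 59.6 to 75.2), 65.4% (interval 51.8 to 76.8), 27.2% (interval 21.3 to 34.0) and 44.6%. The ETS core CCGGAA was in 20.9% (interval 14.9 to 28.5), 32.7% (interval 21.5 to 46.2), 9.24% (interval 5.85 to 14.3) and 17.6%. The TATA letters TATAAA were in 1.49% (interval 0.410 to 5.28), 9.62% (interval 4.18 to 20.6), 13.0% (interval 8.92 to 18.7) and 12.0%. The AP-1 letters TGANTCA were in 6.72%, 5.77%, 10.3% and 7.76%. The TCF/LEF letters CTTTGAT were in 0 of 134 windows (interval up to 2.79%), 5.77% (3 of 52, interval 1.98 to 15.6), 4.89% (9 of 184, interval 2.59 to 9.03) and 2.64%. Base composition differed between the same windows, as given above, and its part in these shares was not tested. A match is a description of letters and not a binding site. Only 23 of 180 pairs with both windows had the same start-to-start gap within 2 bp in the list and the table, so many windows are offset from the start the list used.

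The longest antisense-named peak, 21855 bp, was listed for HM13-AS1 (chromosome 20, 30144264 to 30166117), whose sense gene HM13 encodes signal peptide peptidase. Its centre was labelled as the transcription end of the antisense gene, 5876 bp from a start that it also covers. The HM13 start lies 58853 bp away under a separate peak of 2503 bp. After MAFG-AS1, the next longest came from neighbouring antisense genes within DLGAP1, a postsynaptic scaffold gene on chromosome 18. There, peaks of 8803 bp (DLGAP1-AS1) and 3598, 9896, 5343 and 7284 bp (DLGAP1-AS2) followed each other from 3591985 to 3628755, with gaps of 96, 1527, 186 and 43 bp. Both antisense starts lay under peaks of this run. In all, DLGAP1-AS2 was named for 10 peaks and DLGAP1 for 2. Other long peaks were listed for ARRDC1-AS1 (6794 bp), PROSER2-AS1 (6720 bp) and ZNF503-AS2 (6542 bp). They were followed by HID1-AS1 (6376 bp), RHPN1-AS1 (6302 bp), VPS9D1-AS1 (6253 bp) and DNAH17-AS1 (5977 bp). The VPS9D1-AS1 peak was separated by 33 bp from an 8188-bp peak at the promoter of VPS9D1, a gene with a domain of endosomal guanine nucleotide exchange factors, and the paired starts are 9130 bp apart under their own peaks. The HID1-AS1 peak lay in an intron of HID1, centred at -11442 bp from the antisense start, with a second HID1-AS1 peak of 5962 bp in the first intron. The ZNF503-AS2 peak was a promoter peak of the antisense gene, and ZNF503, a zinc finger repressor gene, had no peak under its own name. Of the 15 longest, 7 were centred in the antisense gene's own transcript and 8 in that of the sense gene.

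**Figure D5:**
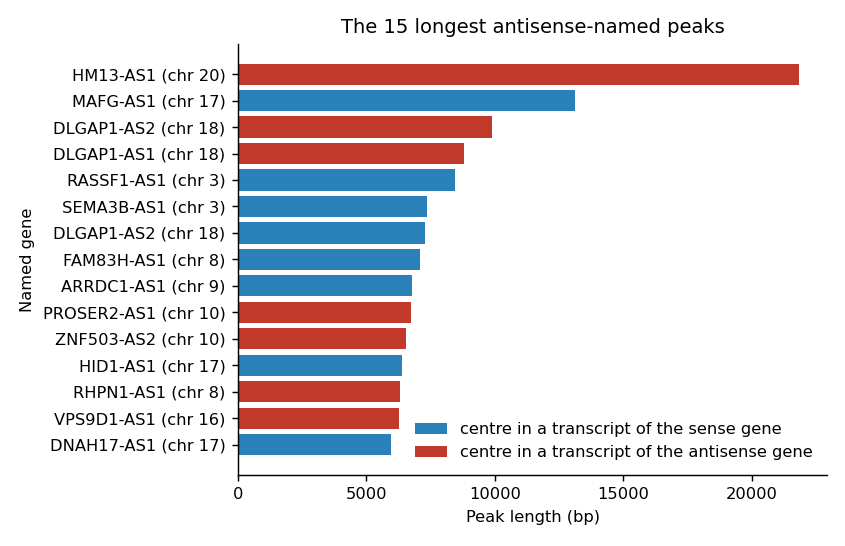
Length in bp of the 15 longest antisense-named peaks, coloured by the transcript the list gives at the centre. HM13-AS1 (21855 bp) and MAFG-AS1 (13123 bp) stand above the rest, which end at 5977 bp for DNAH17-AS1.

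Among promoter-labelled peaks, MAFG-AS1, RASSF1-AS1, SEMA3B-AS1, FAM83H-AS1, ZNF503-AS2 and PTGES2-AS1 were followed by DNAH17-AS1 (4792 bp), ZMIZ1-AS1 (4416 bp), PCBP1-AS1 and PAX8-AS1 (4046 bp), whose sense gene is a thyroid and kidney transcription factor. DNAH17, an axonemal dynein gene, held 5 of the 8 DNAH17-AS1 peaks in its introns, with lengths of 5977, 2027, 3045, 3005 and 3428 bp.

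Sense gene groups were set by the first letters of the symbol alone, so some members do not match the group's name. PAXIP1-AS1 counts with the developmental transcription factors, though PAXIP1 is not a PAX gene. TUB-AS1 counts with the cytoskeletal genes, though TUB is not a tubulin gene. Of these groups, developmental transcription factors were the largest, with 27 antisense genes and 75 peaks. In this group 11 of 27 antisense genes had a peak under their name over the start and 5 had a promoter label, where over all 519 antisense genes the counts were 173 and 119. The 5 longest of these 11 peaks over a start were at SIX3-AS1 (5311 bp), PAX8-AS1 (4046 bp), HOXC-AS2 (3509 bp), HOXB-AS3 (3219 bp) and MNX1-AS1 (3163 bp). ZEB1-AS1, next to the epithelial-mesenchymal transition factor ZEB1, had a 1522-bp peak labelled as a ZEB1 promoter and over the antisense start. ZEB2-AS1 had only a 649-bp peak 78425 bp away, in an intron of ZEB2. The start of GATA6-AS1 was under a 2064-bp peak listed for GATA6, an endoderm factor, 469 bp from the GATA6 start, while the GATA6-AS1 entry itself was an 855-bp peak 11107 bp away. FOXD2-AS1 had a 2666-bp peak 3736 bp from its start. HOXA-AS2 had a peak of 2668 bp in its own intron and HOXA-AS3 one of 1932 bp upstream, neither over the start, whereas the 2636-bp HOXA10-AS peak lay over its start. The single WT1-AS peak was 683 bp long and 31330 bp away.

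The other groups were small. Of the WNT list, ZNRF3-AS1 alone was present: ZNRF3 is a ubiquitin ligase that removes WNT receptors, and 3 of the 4 ZNRF3-AS1 peaks (2200, 1145 and 2767 bp) lay in its introns. The fourth, 4003 bp long, lay over the antisense start in an intron of the antisense gene. The nearer listed ZNRF3 start, 114087 bp away, was under a ZNRF3 peak of 2547 bp, and a ZNRF3 peak of 1695 bp lay over the other. No peak was listed under the name of LEF1-AS1 or WNT5A-AS1. Of the 2066 antisense symbols in the RefSeq table, 483 (23.4%) were named for a peak, so most of these symbols name none. A gene without a named peak may still lie under a peak of another name, as the starts of 57 of the 519 antisense genes did. Which of the 2066 symbols the list could have named is not known. MAFG-AS1, MAP3K14-AS1 and MAPKAPK5-AS1 made up the MAP kinase and AP-1 group. MAP3K14-AS1 had peaks of 2925 and 1371 bp over 2 listed starts, next to the gene of the NF-κB-inducing kinase, and MAPKAPK5-AS1 had a 1742-bp peak in a MAPKAPK5 intron. Of 6 antisense genes of cell cycle and replication genes, 3 had a peak of their own name over the start, among them TMPO-AS1 (2637 bp, centred in the first TMPO exon) and CDKN2B-AS1 (3524 bp, labelled as a CDKN2A promoter). TP73-AS1 had 1 peak of 1794 bp, 8780 bp from its start. A peak of the antisense name lay over the start for 4 of 12 antisense genes of zinc finger genes, 4 of 11 of solute carriers, 4 of 10 of ubiquitin and proteasome genes, 3 of 4 of membrane traffic genes and 1 of 8 of cytoskeletal genes. Counting peaks of any name, these were 6, 6, 5, 4 and 4, with ACTN1-AS1, KTN1-AS1 and SEPT7-AS1 added in the cytoskeletal group. Over all 519 antisense genes the count rose from 173 to 230 in this way. BACE1-AS, SBF2-AS1 and TTN-AS1 had 1 peak each of 849, 1368 and 590 bp, and these peaks did not reach the start. FEZF1-AS1, MCM3AP-AS1, DLX6-AS1, FOXP4-AS1 and BDNF-AS had no peak under their name, like most antisense symbols of the RefSeq table.

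Most antisense genes had few peaks: 258 of 519 had 1, 113 had 2, and the highest number was 14. NR2F1-AS1, next to the nuclear receptor gene NR2F1, had 14 peaks from 91890242 to 92917864 on chromosome 5. A 2439-bp peak lay over its start, and 12 of the other 13 lay between genes, up to 1016530 bp away, with lengths of 472 to 1314 bp. The 14 WDR11-AS1 peaks (chromosome 10) included a single one over the start, and 7 lay in other genes. The 11 ZFPM2-AS1 peaks lay mostly in the antisense gene itself, 9 of 11, and 6 of 11 were centred in SINE repeats. PCDH9-AS2 had 11 peaks in a gene-poor stretch of chromosome 13 (65900880 to 67423277), 8 between genes and 7 centred in SINE repeats. Its 3 most distant, of 796, 541 and 569 bp, lay at -1498024, -1116801 and -1092075 bp from the start. The MYO16-AS1 peaks lay in MYO16 (6) or between genes (5), and 9 of 10 TEX36-AS1 peaks lay between genes. The long runs of distant peaks at PCDH9-AS2 and NR2F1-AS1 were of short peaks, with medians of 682 and 742 bp. Runs within or mostly within 1 gene were of unlike lengths. Medians were 2943 bp for SH3PXD2A-AS1 and 3212 bp for DLGAP1-AS2. For PCCA-AS1, MAGI1-AS1 and ZFPM2-AS1 the medians were 1132, 1123.5 and 735 bp.

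Antisense-named peaks were unevenly spread over chromosomes. Chromosome 3 held 162 (13.6% of them, against 5.71% of all peaks), chromosome 10 held 142 (11.9% against 5.07%) and chromosome 13 held 113 (9.50% against 2.08%). On chromosome 13, antisense names took 12.1% of all peaks. The names themselves were uneven too: 74, 42 and 40 of the 519 antisense genes lie on chromosomes 3, 10 and 13. In the current RefSeq table, these chromosomes hold 8.91%, 5.32% and 3.48% of antisense symbols. The part of gene naming in this pattern was not tested. Of the 519 antisense genes, 51 now carry a -DT symbol in that table, which stands for divergent transcript.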

How the data were processed

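The submitters deposited 1 table of annotated peaks; MACS2 and hg19 are named in the submitters' processing notes. No version or threshold of MACS2, aligner, annotation tool or use of the input is stated there. Per the file headers each row has a score, an annotation, a detailed annotation and a signed distance in bp from peak centre to TSS; the deposited score is a length.

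Names ending in -AS with or without a number were taken as antisense, and the text before as the sense gene. Members and lists were chosen with earlier results of these data known. Symbols were matched to RefSeq (GRCh38.p14) for names only: 518 of 519 antisense names matched, 437 as written. Transcripts at peak centres matched for 849 of 862 peaks. With 2 or more peaks, a gene's strand and start were those that make its signed distances give the fewest start positions (257 genes). The strand of the RefSeq promoter table was used for 174 more, and it equalled the solved strand in 161 of 162 genes with both. On simulated data for 261 genes, each given 1 start, all 261 starts came back within 1 bp. Genes with several starts, or with the strand of the promoter table, were not simulated, so the simulation does not bear on them. A start was called covered where it fell between the ends of the peak.

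Named genes were those of the 15 longest peaks, the 10 longest promoter peaks, the 10 genes with most peaks, the 10 longest peaks over paired starts, the most distant peaks, those beside 1 kb, and a fixed list, of which some are not reported here; others were added after their values were seen. Python 3.11.15, numpy 2.4.6, pandas 2.3.3, scipy 1.17.1 and matplotlib 3.10.9 were used. Depth is unknown, and no test was run.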

Additional observations from a re-analysis of the deposited data

How the results depend on the processing

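No paired analysis was possible because the list comes from 1 library. Merging peaks within 500 bp and dropping the antisense name absent from RefSeq left the summary values within their main intervals, except that merging lowered the share of antisense peaks with a sense-named peak within 10 kb from 7.57% to 5.85%. A length limit selects on the length it then reports. With peaks of at least 1350 bp, and of at least 2135 bp, the promoter share was 20.6% and 23.4%, the share within 1 kb of the start 29.0% and 32.8%, and the median length 2260 and 2980 bp. The share of antisense genes whose sense gene was named was then 50.6% and 36.6%, and that with a covered start 51.3% and 56.3%. A length limit, like the removal of SINE-centred peaks, also takes out sense-named peaks, so fewer sense genes can be named. The matching shares over all protein-coding genes were not computed. The share near a sense-named peak was 9.92% with peaks of at least 1350 bp. Without SINE-centred peaks these values were 15.4% (promoter), 21.5% (within 1 kb), 1484 bp, 60.0% (sense gene named) and 40.5% (covered start). With only the nearest peak of each antisense gene they were 22.9% (promoter), 32.0% (within 1 kb), 1418 bp and 14.5% (near a sense-named peak). A bound of 10 kb in place of 1 kb gave 29.4%, and sense-named peaks within 1 kb or 50 kb of an antisense peak 1.93% and 29.5%. Older symbols and HOX clusters, and 500 bp of slack around a start, left their values within the main interval. Without read counts or replicates, no difference between kinds of peaks was tested.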
